A study of Mus musculus with 384 samples.

Results

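The collagen chain genes of the mouse were taken as every gene whose symbol is Col, a number, the letter a and a number. They made up 44 of the 22276 genes measured in single cells that the study sorted as lung mesenchyme. Reporter-positive cells were sorted from 2 mice of each of the lines Lgr5-CreERT2;R26-Tom and, separately, Lgr6-EGFP-CreERT2. Single cells were profiled by SmartSeq2, a full-length RNA-seq protocol. In the first line, CreERT2 from the Lgr5 locus removes a stop cassette before TdTomato in Rosa26 once tamoxifen is given, so Tom+ cells are cells that used the locus at induction and their descendants. In the second line the knock-in allele makes EGFP and CreERT2 from the Lgr6 locus, and GFP+ cells use that locus when sorted. The animals of most of the study's experiments were 7 to 10 weeks old. Both sorts took CD31-, CD45-, CD11b- and TER119- cells and, as described, did not deplete EpCAM+ epithelial cells. The lines therefore differ in the reporter, in the tamoxifen induction described for the Lgr5 line and in lineage label against current activity, as well as in the locus, and these cannot be told apart here. The question addressed is which fibrillar, basement membrane and other collagens these cells express, by line and by whether a cell is rich in Acta2, the smooth muscle actin gene.

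Collagens are trimers of chains that twist around each other, and each gene here encodes 1 chain. Fibrillar collagens (types I, III, V, XI, XXIV and XXVII, with type II of cartilage) form the cables that carry load around airways and vessels and in the alveolar wall. Type IV chains form the sheet-like network of basement membranes, on which smooth muscle and epithelium rest, whereas type VI forms beaded microfibrils at the cell surface. FACIT collagens sit on the surface of fibrils, multiplexins lie at basement membranes, and transmembrane collagens stay anchored in the cell membrane.

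The kept cells numbered 29 and 28 in Lgr5 mice 1 and 2 and 50 and 75 in Lgr6 mice 1 and 2. Their counts summed to 9874249, 13198680, 28875278 and 124650544 reads. Levels are log2(TPM + 1) as deposited, TPM being the usual length-scaled measure of transcript abundance, and a mouse's level is the mean over its cells. Acta2-high cells, those with a level of Acta2 of at least 11, numbered 1, 0, 27 and 38, so the class could be compared only within the Lgr6 line. The class is a range of 1 gene and not a cell type, and 2, 4, 10 and 16 cells lay within 1 of that limit. In the Lgr6 mice the 8 smooth muscle markers, Acta2 among them, summed to a mean of 24361 and 24857 TPM in Acta2-high cells against 1390 and 1682 TPM in Acta2-lower cells. As a check of the labels, Lgr5 had a mean log2(TPM + 1) of 5.29 and 4.69 in the Lgr5 mice against 0.29 and 0.73 in the Lgr6 mice. Lgr6 did not separate the lines, with 1.56 and 1.77 in the Lgr5 mice against 1.15 and 1.61 in the Lgr6 mice.

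Some cells stood apart and touch the results below. In 11 kept cells (1, 2, 3 and 5 by mouse) the 7 epithelial markers summed to 94741 to 605027 TPM, against at most 44221 TPM in the others. Sftpc, the surfactant protein C gene of alveolar type 2 cells, averaged 326773 TPM in them. The study itself describes a small cluster of kept cells with epithelial markers, Sftpc among them, and whether it holds these 11 was not tested. All 11 were Acta2-lower, and 10 of the 11 had no count of Col1a1, Col1a2 or Col3a1. Those 10 were the only kept cells without any of these 3 chains. Separately, 1 Acta2-lower cell of Lgr6 mouse 1 held 41.9% of that mouse's collagen counts but 14.1% of its counts over all genes. For some fold changes and levels below, the value without these cells is given beside it, and others moved as well.

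Of the 44 members, 43 had a count in at least 1 cell, and Col26a1 had none, which allows a share of up to 1.65% of cells. A count in at least 10% of the cells was reached by 18 members, namely 6 of 11 fibrillar, 5 of 6 type IV, 3 of 6 type VI, 3 of 9 FACIT and 1 of 2 multiplexin chains. None of the 3 short chain, 4 transmembrane or 3 other members reached it. Of the remaining 26, 19 were found in 1 to 7 cells and 6 in 14 to 18 cells, with Col8a1 and Col23a1 just under the limit at 18 cells each. A cell held a median of 12, 10, 11.5 and 12 members by mouse, and collagen took a median of 0.413%, 0.461%, 0.749% and 0.740% of its reads. Col3a1 had the highest TPM of all members in 16, 14, 30 and 45 cells by mouse, and over all mice Col6a1 led in 32 cells, Col6a2 in 13, Col1a1 in 9 and Col1a2 in 8.

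**Figure D1:**
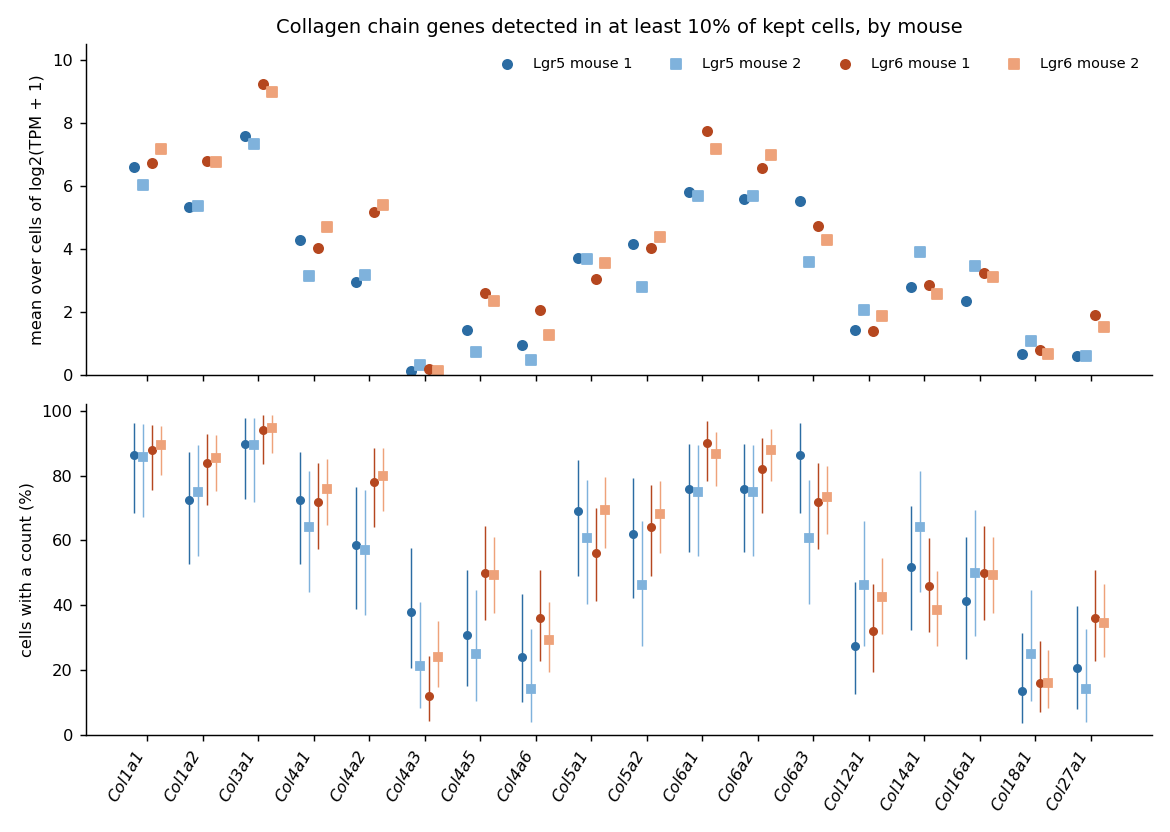
Level of the 18 more widely detected members in each mouse (top, mean over cells of log2(TPM + 1)) and the percentage of cells with a count (bottom, bars are exact 95% intervals for counting error only). Col3a1 lies highest in all 4 mice, and for Col3a1, Col1a2 and Col4a2 both Lgr6 mice lie above both Lgr5 mice.

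The promoters of a pair of leading fibrillar chains and of the 2 main type IV chains are shown because the values below turn on these genes. Each is the RefSeq window from 250 bases before to 50 bases after the start site, on build GRCm38.p6, written 5′ to 3′ on the gene's strand. For Col3a1 (chr1:45311288-45311587, plus strand) and Col1a2 (chr6:4505368-4505667, plus strand), capitals mark the CCAAT box, the TATA box letters TATAAA and the GC box letters GGGCGG, each on either strand.
Col3a1: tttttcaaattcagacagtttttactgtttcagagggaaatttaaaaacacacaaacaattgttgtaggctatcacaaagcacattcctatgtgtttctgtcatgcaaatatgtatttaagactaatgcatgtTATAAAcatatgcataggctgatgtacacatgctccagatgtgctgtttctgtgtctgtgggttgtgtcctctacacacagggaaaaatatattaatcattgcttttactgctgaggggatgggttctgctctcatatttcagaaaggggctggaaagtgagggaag
Col1a2: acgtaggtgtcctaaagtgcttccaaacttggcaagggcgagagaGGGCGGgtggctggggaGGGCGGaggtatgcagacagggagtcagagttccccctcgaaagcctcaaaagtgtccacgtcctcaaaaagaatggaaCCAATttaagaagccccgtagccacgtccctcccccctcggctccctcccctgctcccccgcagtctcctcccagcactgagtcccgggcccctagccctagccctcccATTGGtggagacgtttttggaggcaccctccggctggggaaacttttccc
For Col4a1 (chr8:11312777-11313076, minus strand) and Col4a2 (chr8:11312555-11312854, plus strand), capitals mark the 78 bases that both windows share, which read as reverse complements because the genes point away from each other.
Col4a1: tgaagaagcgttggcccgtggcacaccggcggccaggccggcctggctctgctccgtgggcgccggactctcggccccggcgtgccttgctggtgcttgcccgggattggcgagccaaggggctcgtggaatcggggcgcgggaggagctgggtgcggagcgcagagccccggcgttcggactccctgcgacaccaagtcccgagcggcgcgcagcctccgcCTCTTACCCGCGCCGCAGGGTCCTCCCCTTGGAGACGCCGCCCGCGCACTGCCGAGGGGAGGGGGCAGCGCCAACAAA
Col4a2: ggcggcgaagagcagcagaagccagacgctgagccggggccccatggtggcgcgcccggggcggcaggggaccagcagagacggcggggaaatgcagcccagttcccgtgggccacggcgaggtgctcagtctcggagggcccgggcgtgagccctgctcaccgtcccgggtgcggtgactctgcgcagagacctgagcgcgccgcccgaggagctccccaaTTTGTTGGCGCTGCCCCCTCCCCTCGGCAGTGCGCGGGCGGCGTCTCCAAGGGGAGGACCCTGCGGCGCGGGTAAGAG
Windows were at hand for 35 members, 38 windows in all. GGGCGG was present in 23 of them (60.5%, against 35.7% of 32851 windows of all genes), CCAAT in 13 (34.2% against 37.4%) and TATAAA in 5 (13.2% against 13.6%), each searched on both strands. The CArG box, the motif bound by serum response factor at smooth muscle genes, matched 1 window (2.63% against 1.63%), that of Col6a4. A match describes letters only and shows no binding.

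Among the fibrillar chains, Col3a1 (chromosome 1, 45311538 to 45349706, plus strand), which makes the type III collagen of distensible tissue, was highest. Its mean log2(TPM + 1) was 7.58 and 7.34 in Lgr5 mice 1 and 2, against 9.24 and 8.97 in Lgr6 mice 1 and 2. The mice of the lines did not overlap, with line means of 7.46 ± 0.17 and 9.11 ± 0.19 (SD, n = 2). Without the epithelial-marker-rich cells the levels were 7.85 and 7.91 against 9.83 and 9.61. Of all kept cells, Col3a1 had a count in 26 of 29 and 25 of 28 Lgr5 cells and in 47 of 50 and 71 of 75 Lgr6 cells. On summed reads the log2 fold change, Lgr6 against Lgr5, was 1.13 (SE 0.38, edgeR adjusted p = 0.401), and on cell means limma gave a difference of 1.64 (SE 0.43, adjusted p = 0.0462).

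Col1a1 (chromosome 11, 94936224 to 94953042, plus strand) and Col1a2 (chromosome 6, 4504814 to 4541544, plus strand) encode the chains of type I collagen, which joins 2 Col1a1 products to 1 of Col1a2. Col1a2 had levels of 5.32 and 5.37 in the Lgr5 mice against 6.78 and 6.77 in the Lgr6 mice, a wider gap than between the 2 mice of either line. Without the epithelial-marker-rich cells these levels were 5.51 and 5.79 against 7.21 and 7.25. With all cells Col1a2 was not called by limma, with a difference of 1.42 (SE 0.51, adjusted p = 0.137). Its fold change on summed reads was 1.06 (SE 0.40, edgeR adjusted p = 0.462), and 0.72 without the collagen-rich cell. Col1a1 lay closer, at 6.61 and 6.02 against 6.72 and 7.16, and its line means of 6.32 ± 0.42 and 6.94 ± 0.31 (SD, n = 2) differed by about the spread between mice. Without the epithelial-marker-rich cells Col1a1 was at 6.85 and 6.48 against 7.15 and 7.67. The ratio of Col1a2 to Col1a1 in mean TPM was 0.733 and 0.907 in the Lgr5 mice against 1.33 and 0.823 in the Lgr6 mice, so it showed no separation of the lines.

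Type V chains regulate fibril diameter. Col5a1 stood at 3.73 and 3.68 in the Lgr5 mice against 3.07 and 3.57 in the Lgr6 mice, the only one of the 18 members whose Lgr5 mice both lay above both Lgr6 mice. The limma difference was -0.39 (SE 0.50, adjusted p = 0.709). Col5a2, next to Col3a1 on chromosome 1, gave 4.15 and 2.80 against 4.04 and 4.39, and the groups overlapped. Col27a1, a fibrillar chain known from cartilage, gave 0.62 and 0.63 against 1.91 and 1.52, with a fold change of 2.48 on summed reads (SE 0.89, edgeR adjusted p = 0.436). The remaining fibrillar members were rare, and Col5a3 was found in 4, 2, 5 and 5 cells by mouse.

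Type VI chains came second to the fibrillar ones. Col6a1 had levels of 5.81 and 5.67 in the Lgr5 mice against 7.75 and 7.19 in the Lgr6 mice. Col6a2, which lies beside Col6a1 on chromosome 10, had 5.58 and 5.69 against 6.58 and 6.97. Both genes separated the lines, and both encode partners of the same trimer. Col6a3, the longest chain of that trimer, did not, with 5.52 and 3.60 against 4.73 and 4.29. On summed reads the fold changes were 1.07 (SE 0.49, edgeR adjusted p = 0.582) for Col6a1 and 1.32 (SE 0.40, edgeR adjusted p = 0.352) for Col6a2. For Col6a3 it was 0.37 (SE 0.49, edgeR adjusted p = 0.865), while the limma difference was -0.05 (SE 0.65, adjusted p = 0.976). The collagen-rich cell held 63.7% of the Col6a2 and 69.8% of the Col6a3 counts of Lgr6 mouse 1. Without it the fold changes of Col6a1, Col6a2 and Col6a3 were 0.52, 0.70 and -0.49. Within a cell the partners were not always seen together, since Col6a1 alone was counted in 25 cells and Col6a2 alone in 22.

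Col4a1 and Col4a2 encode the common trimer of basement membranes and lie head to head on chromosome 8 (11198423 to 11312826, minus strand, and 11312805 to 11449287, plus strand, in the GENCODE annotation of GRCm38). Their start sites are 21 bases apart, over the shared stretch shown above. They did not have the same pattern. Col4a2 had levels of 2.97 and 3.19 in the Lgr5 mice against 5.19 and 5.41 in the Lgr6 mice, and the mice of the lines were 2.22 apart on average (SE 0.51, limma adjusted p = 0.0264). On summed reads its fold change was 1.34 (SE 0.46, edgeR adjusted p = 0.402). Col4a1 gave 4.30 and 3.13 against 4.05 and 4.69, and the groups overlapped, with a fold change of 0.20 (SE 0.45, edgeR adjusted p = 0.668). Col4a1 alone was counted in 29 cells, Col4a2 alone in 29, neither in 21 and both in the rest. The genes overlap by 22 bases on opposite strands, and no source used here states that strand was counted.

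The minor type IV chains come in head-to-head pairs as well. Col4a5 and Col4a6, on the X chromosome with start sites 1309 bases apart, gave 1.45 and 0.74 against 2.61 and 2.36, and 0.95 and 0.50 against 2.06 and 1.27. Both were higher in both Lgr6 mice. Col4a5 had the larger fold change on summed reads, 2.60 (SE 0.81, edgeR adjusted p = 0.373). Col4a3 (72 bases from Col4a4) stayed near 0 in every mouse, between 0.13 and 0.32.

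The 3 more widely detected FACIT chains overlapped between the lines on these levels. Col14a1, which coats mature fibrils, gave 2.80 and 3.92 in the Lgr5 mice against 2.87 and 2.57 in the Lgr6 mice. Col16a1 gave 2.34 and 3.46 against 3.24 and 3.10, and Col12a1, a chain of load-bearing tissue, gave 1.44 and 2.07 against 1.42 and 1.89. The multiplexin Col18a1, whose end fragment is endostatin, gave 0.68 and 1.08 against 0.81 and 0.67. Col18a1 shares 8825 bases with Slc19a1 on the opposite strand, so its values are uncertain where strand was not counted.

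Across the lines, edgeR called 0 of 30 members tested at an adjusted p under 0.05 (0% of all 14086 genes were called). At an unadjusted p under 0.05 there were 7 members and 1312 genes, and DESeq2 called 0 members. With limma on cell means, 2 members were called, Col3a1 and Col4a2, where 4.54% of genes were. Both Lgr6 mice lay above both Lgr5 mice for 10 of the 30 members (33.3%, against 20% of genes), Col1a1, Col1a2, Col3a1, Col4a2, Col4a5, Col4a6, Col6a1, Col6a2, Col13a1 and Col27a1. They lay below for 4 (13.3%, against 31% of genes), Col5a1, Col5a3, Col11a2 and Col22a1. The median log2 fold change was 0.92 over the members and 0.05 over all genes, whereas the median limma difference was 0.09 and -0.08. Without the 11 epithelial-marker-rich cells limma called 1 member, Col3a1 (difference 1.84, adjusted p = 0.0434), and Col4a2 kept its size (2.24, adjusted p = 0.0556).

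The second comparison set Acta2-high against Acta2-lower cells within the Lgr6 mice. Col4a2 had a mean log2(TPM + 1) of 6.65 and 6.38 in the Acta2-high cells of mice 1 and 2, against 3.47 and 4.40 in the Acta2-lower cells. It had a count in 25 of 27 and 33 of 38 high cells (92.6% and 86.8%) and in 14 of 23 and 27 of 37 lower ones. With each cell thinned to 99000 reads, the shares were 90.5% and 86.5% against 50% and 66.7%. In the lower cells of the Lgr5 mice, where no class comparison was possible, the level was 2.85 and 3.19 and the share 57.1% in each. The limma difference between classes was 2.59 (SE 0.64, adjusted p = 0.00349), from 3.19 and 1.99 in mice 1 and 2. Summed reads did not carry it, with 243 and 531 CPM (reads scaled to library size) in the high cells against 283 and 239 in the lower ones and a fold change of 0.47 (SE 0.53, edgeR adjusted p = 1). In Lgr6 mouse 1 the lower class was above the high class on that scale. The limma variance, here and in the other fits, came largely from other genes of like level. The limma p-value therefore does not measure the spread of Col4a2 between the 2 mice.

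Its neighbour Col4a1 had levels of 3.95 and 4.91 in the high cells against 4.16 and 4.45 in the lower ones, a limma difference of 0.12 (SE 0.63, adjusted p = 0.961). The direction was not the same in the 2 mice, and 66.7% and 84.2% of high cells had a count against 78.3% and 67.6% of lower cells. Col4a6 gave 2.57 and 1.59 against 1.45 and 0.95. Col4a5 gave 2.64 and 3.51 against 2.57 and 1.18, a gap that 1 of the 2 mice provided. By contrast Col4a3 was at 0.00 and 0.01 in the high cells and 0.41 and 0.25 in the lower ones. Without the epithelial-marker-rich cells the lower cells were at 0.23 and 0.017. Lower cells with a count of it then numbered 3 and 9, against 4 and 11 before.

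Col14a1 (chromosome 15, 55307750 to 55520803, plus strand) had the opposite pattern. Its level was 2.11 and 1.45 in the Acta2-high cells and 3.77 and 3.72 in the Acta2-lower cells, and the lower cells of the Lgr5 mice had 2.90 and 3.92. Without the epithelial-marker-rich cells the lower cells were at 4.34 and 4.30 in the Lgr6 mice and 3.01 and 4.22 in the Lgr5 mice. With all cells, Col14a1 was counted in 10 of 27 and 9 of 38 high cells, 13 of 23 and 20 of 37 lower cells, and 15 of 28 and 18 of 28 Lgr5 lower cells. The limma difference was -1.97 (SE 0.56, adjusted p = 0.0163), from -1.67 and -2.27 in mice 1 and 2, and its p-value has the same limit as for Col4a2. Summed reads ran the same way, with 113.2 and 82 CPM against 351 and 246, and a fold change of -1.61 (SE 0.50, edgeR adjusted p = 0.602). Among the 16 members detected in at least 25% of cells, Col14a1 was the only one with an edgeR p under 0.05 before adjustment (p = 0.0236).

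**Figure D2:**
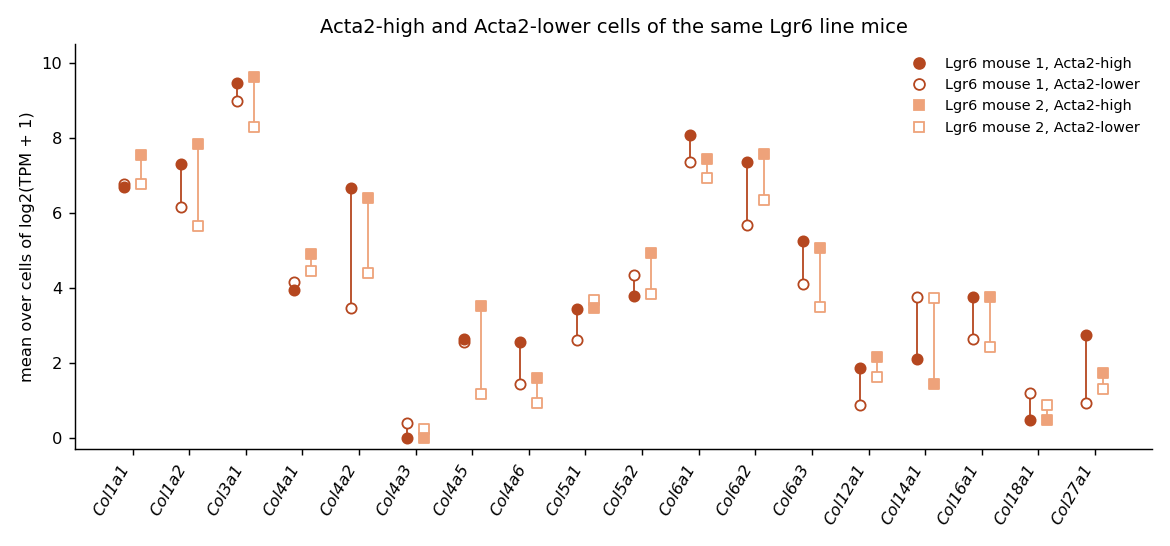
Mean log2(TPM + 1) of the 18 members in the Acta2-high (filled) and Acta2-lower (open) cells of each Lgr6 mouse. Col4a2 lies higher and Col14a1 lower in the Acta2-high cells of both mice, whereas Col4a1 changes side between them.

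For Col3a1 the spread over cells and the share of cells at 0 differed between the classes. It had a count in 27 of 27 and 38 of 38 high cells, and in 20 of 23 and 33 of 37 lower cells. Its SD over all cells was 1.51 and 1.23 in the high class and 3.76 and 3.72 in the lower class. Among cells with a count the SD was 1.51 and 1.23 against 1.32 and 2.43, so in mouse 1 the lower class was then no wider. Over all cells the mean was 9.47 and 9.62 against 8.98 and 8.30, while the median ran the other way, 9.66 and 9.73 against 10.62 and 9.78. Without the epithelial-marker-rich cells the lower cells averaged 10.32 and 9.60, above the high cells in mouse 1 and just below them in mouse 2, and Col3a1 was found in every Lgr6 cell that remained.

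For Col1a1 the levels were 6.68 and 7.53 in the high cells against 6.77 and 6.77 in the lower ones, and the lower cells were at 7.78 and 7.83 without the epithelial-marker-rich ones. Col1a2 gave 7.30 and 7.84 against 6.16 and 5.66. Col6a1 gave 8.09 and 7.44 against 7.37 and 6.93, Col6a2 7.36 and 7.57 against 5.67 and 6.35, and Col6a3 5.26 and 5.07 against 4.11 and 3.48. All 4 of these means were higher in the high class of both mice. Without the epithelial-marker-rich cells the lower cells stood at 7.09 and 6.54 for Col1a2, 7.54 and 7.22 for Col6a1, 6.30 and 6.71 for Col6a2 and 4.72 and 4.03 for Col6a3, still below the high cells but by less. On summed reads the same 4 chains had fold changes below 0, from -0.29 for Col1a2 to -1.08 for Col6a1, none called. The collagen-rich cell supplied 79.5% of the Col1a1, 86.6% of the Col6a2, 92.1% of the Col6a3 and 53.6% of the Col3a1 counts in the lower cells of Lgr6 mouse 1. Over all genes it held 4060496 of the 11223789 reads of these lower cells. Without that cell the fold changes of Col1a2, Col6a2 and Col6a3 were above 0, at 0.47, 0.23 and 0.80, and that of Col6a1 was -0.20.

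**Figure D3:**
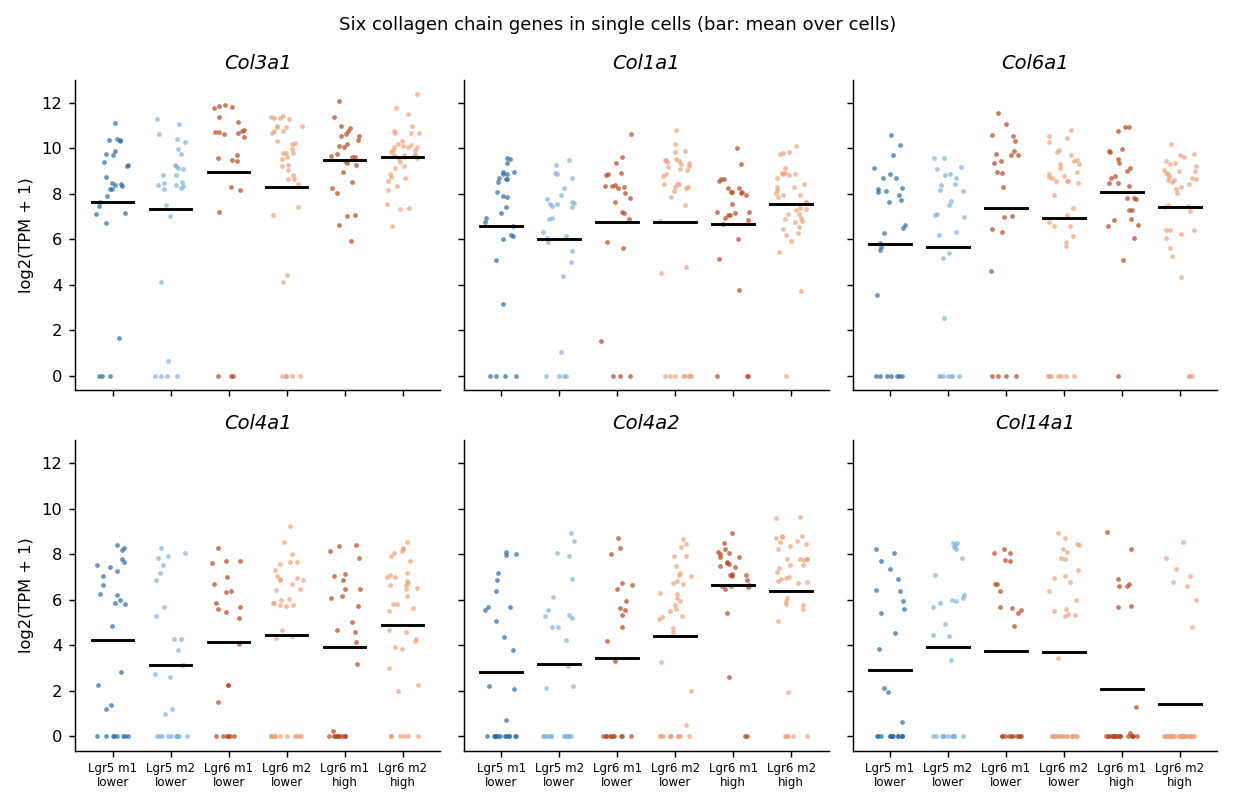
log2(TPM + 1) of 6 members in each kept cell, by mouse and Acta2 class, with the group mean as a bar. Col3a1 has an SD of 1.51 and 1.23 in the Acta2-high cells of Lgr6 mice 1 and 2. The lower classes hold a set of cells at 0. Among the Acta2-lower Lgr6 cells with a count the SD is 1.32 and 2.43.

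The fibril-associated Col16a1 (3.77 and 3.75 against 2.63 and 2.44), Col12a1 (1.86 and 2.16 against 0.90 and 1.62) and the fibrillar Col27a1 (2.74 and 1.73 against 0.93 and 1.30) were higher in the high cells of both mice on cell means. Their limma differences were 1.22 (SE 0.58), 0.75 (SE 0.49) and 1.12 (SE 0.49), with limma adjusted p of 0.249, 0.460 and 0.182. Col5a1 (3.45 and 3.46 against 2.61 and 3.68) and Col5a2 (3.78 and 4.92 against 4.35 and 3.84) changed direction between the mice.

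Over all members, edgeR called 0 of 32 between the classes (0.0296% of 13529 genes), with 5 members and 1039 genes at an unadjusted p under 0.05. DESeq2 called 2, Col15a1 and Col23a1, both lower in the high cells, and limma 3 (Col4a2, Col14a1 and Col23a1, where 5.1% of genes were called). In both mice the high cells lay above the lower cells for 14 of 32 members (43.8%, against 31.1% of genes), which were Col1a2, Col3a1, Col4a2, Col4a5, Col4a6, Col6a1, Col6a2, Col6a3, Col12a1, Col16a1, Col27a1 and the rare Col8a1, Col10a1 and Col19a1. They lay below for 9 (28.1%, against 26.4%), Col4a3, Col4a4, Col5a3, Col11a2, Col13a1, Col14a1, Col15a1, Col18a1 and Col23a1. The median fold change was -0.76 over the members and 0.02 over all genes, and the median limma difference 0.16 and 0.02. Without the 11 epithelial-marker-rich cells limma called 0 members and 0 of 13527 genes, with 1537 genes at an unadjusted p under 0.05, and edgeR called 0 as well. Acta2, by which the classes were cut, was among the genes that limma did not call in that setting. The lack of calls therefore says nothing about single members. Col4a2 and Col14a1 had differences of 2.74 (adjusted p = 0.379) and -2.54 (adjusted p = 0.352) there, no smaller than with all cells.

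**Figure D4:**
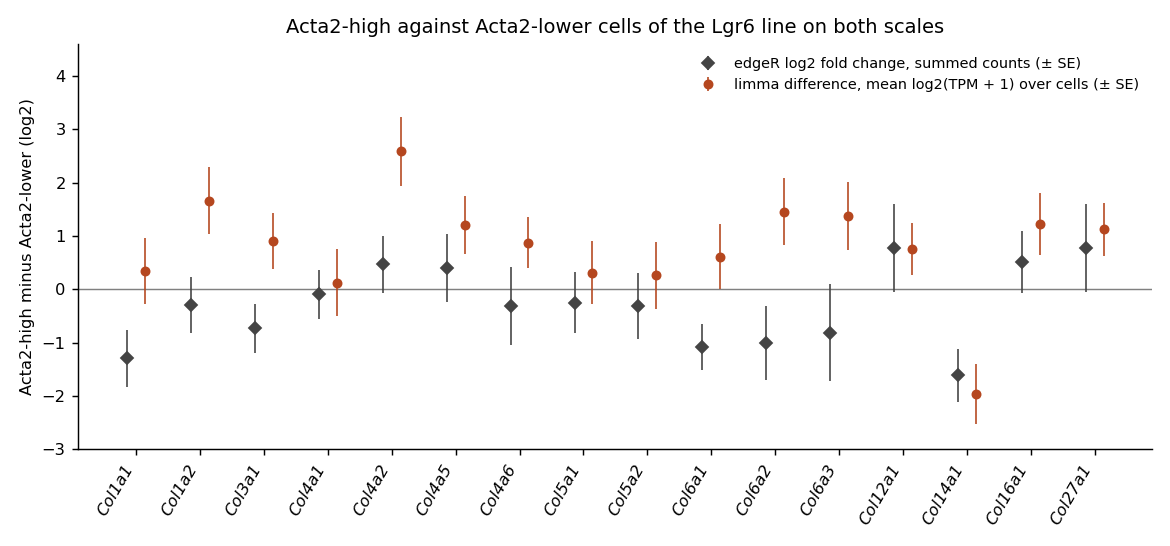
Acta2-high minus Acta2-lower cells in the Lgr6 mice for 16 members, as edgeR log2 fold change of summed reads (± SE) and as limma difference of mean log2(TPM + 1) (± SE). Col14a1 lies below 0 on both scales, and Col1a2, Col3a1, Col6a1, Col6a2 and Col6a3 lie below 0 on the first and above 0 on the second.

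Markers of some other cell types moved with the class, but not those of all. The 6 pericyte markers changed side between the mice, at 603 and 800 TPM in the high cells against 711 and 445 TPM in the lower cells. The 7 epithelial markers summed to a mean of 85.9 and 4.67 TPM in the high cells, with Epcam at 0 in both mice, against 43753 and 34840 TPM in the lower cells. The 5 immune markers summed to 27.2 and 40.7 TPM in the high cells against 12070 and 7539 TPM in the lower cells. The 7 alveolar fibroblast markers, Pdgfra among them, summed to 70.6 and 37.2 TPM against 482 and 338 TPM. The 6 endothelial markers were at 0 in the high cells, against 30.9 and 11.4 TPM in the lower cells. The part of these cells in the results other than those given without them was not tested.

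The transmembrane chains, the multiplexin Col15a1 and the short chains were each found in few cells. Col23a1 was counted in 0 of 27 and 2 of 38 high cells and in 4 of 23 and 3 of 37 lower cells (limma difference -0.78, SE 0.25, adjusted p = 0.0417). Col13a1, a transmembrane chain of cell adhesion, was in 1, 2, 5 and 8 cells by mouse, of which 1 and 2 in the Lgr6 mice were Acta2-high. Col15a1, the second multiplexin, was in 5, 0, 5 and 4 cells, of which 2 and 2 in the Lgr6 mice were Acta2-high, and 99.7% of its counts in the lower cells of Lgr6 mouse 1 came from the collagen-rich cell. Col8a1, the short chain of vessel walls, was in 5, 0, 2 and 11 cells and so varied between mice of one line more than between lines.

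The third comparison left out the Acta2-high cells and set the Acta2-lower cells of the lines against each other. Col3a1 stood at 7.65 and 7.34 in the Lgr5 mice against 8.98 and 8.30 in the Lgr6 mice, with a fold change on summed reads of 1.68 (SE 0.50, edgeR adjusted p = 0.328). Without the epithelial-marker-rich cells its levels were 7.93 and 7.91 against 10.32 and 9.60. Col6a1, Col6a2 and Col4a5 had fold changes of 1.81 (SE 0.61), 1.98 (SE 0.61) and 3.05 (SE 0.98), with edgeR adjusted p of 0.395, 0.333 and 0.353. The collagen-rich cell held 78.2%, 86.6% and 64.7% of their counts in the lower cells of Lgr6 mouse 1, and 4060496 of the 11223789 reads of these cells over all genes. Without it the fold changes were 0.66, 0.56 and 2.41. That of Col3a1 was then 1.27. For Col4a2 the limma difference was 0.92 (SE 0.61, adjusted p = 0.475), against 2.22 with all cells. edgeR called 0 of 27 members (0% of 12958 genes), with 9 members and 976 genes at an unadjusted p under 0.05, DESeq2 called 0 and limma 0 (2.02% of genes). Both Lgr6 mice lay above both Lgr5 mice for 8 members (29.6%, against 17.4% of genes), Col1a1, Col1a2, Col3a1, Col4a2, Col4a6, Col6a1, Col13a1 and Col27a1, and below for 1, Col5a1 (3.70%, against 29.7%). Without Lgr6 mouse 2, edgeR called 3 members, Col3a1, Col6a1 and Col6a2, as higher in the remaining Lgr6 mouse, which holds the collagen-rich cell, and without Lgr5 mouse 1 it called Col15a1. A mouse left alone in its line is assumed there to vary like the other line's mice.

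By summed TPM, which is scaled by transcript length, fibrillar chains made up 54.7% to 59.4% of collagen in the 6 groups of mouse and class, and type VI chains 24.4% to 29.6%. Type IV chains made up 10.2% and 10.6% in Acta2-high cells of Lgr6 mice, 5.14% and 6.82% in their lower cells, and 7.43% and 6.99% in the lower cells of Lgr5 mice. FACIT chains ranged from 3.37% to 12.8%, the highest in Lgr5 mouse 2. Transmembrane chains took 0.174% and 0.193% in high cells and 1.61% and 1.79% in lower cells of the Lgr6 mice. These shares come from 2 mice a group and were not tested.

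**Figure D5:**
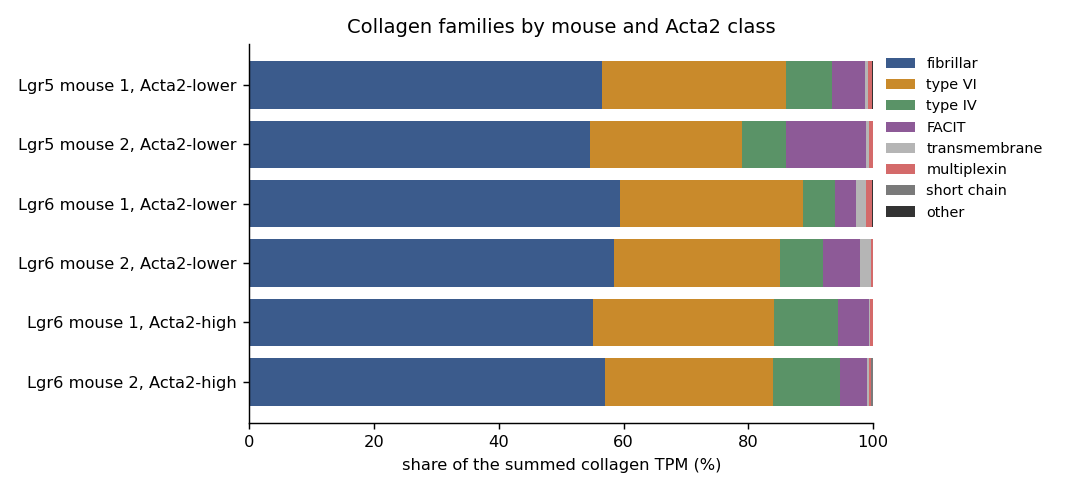
Share of the summed collagen TPM taken by each family in 6 groups of mouse and Acta2 class, in percent. Fibrillar chains take 54.7% to 59.4% in each, and type IV is largest in the Acta2-high cells of both Lgr6 mice, at 10.2% and 10.6%.

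Chains that meet in one trimer or fibril were compared within cells as a description, over the cells of each mouse and class, which come from 1 animal and differ in depth. The type I pair Col1a1 and Col1a2 was found apart in 28 cells (20 with Col1a1, 8 with Col1a2), and the Pearson r of their log2 values ranged from -0.018 to 0.55 over 6 groups (the Lgr5 mice unsplit, the Lgr6 mice by class). Col1a1 and Col3a1, whose products meet in the same fibrils, were found apart in 15 cells (3 with Col1a1, 12 with Col3a1), and r ranged from 0.35 to 0.83. The highest r, 0.78 and 0.83, were in the Acta2-lower cells of Lgr6 mice 1 and 2, which hold 3 and 4 epithelial-marker-rich cells with neither chain. In the Acta2-high cells of these mice r was 0.58 and 0.54. For Col4a1 and Col4a2 r ranged from 0.05 to 0.22, and for Col6a1 and Col6a2 from 0.07 to 0.22. Of Col1a1, Col1a2 and Col3a1, 2 were counted in 27 cells, 1 in 6, none in 10 and all 3 in the rest.

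The 11 epithelial-marker-rich cells had a collagen set of their own. Col4a1 and Col4a2 were counted in 10 of the 11 each, Col6a1 in 9, Col4a3 and Col6a2 in 5, Col18a1 in 4 and Col4a5 in 3. Col1a1, Col1a2, Col4a6, Col5a1, Col5a2, Col14a1, Col16a1 and Col27a1 were counted in 0 of 11, which allows a share of up to 27.3%. Collagen took a median of 0.0687% of their reads, against 0.685% in the other cells. Among the other cells Col3a1 was found throughout Lgr6 mouse 1 (47 of 47 cells) and Lgr6 mouse 2 (70 of 70 cells). These cells were picked by markers that are no collagens, but after the data had been seen.

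Genes that make, cross-link, cut or bind collagen were read from pathway lists. edgeR called 0 of them in each of the 3 comparisons. In the lines comparison, where limma called 4.54% of all genes, it called 1 of 15 genes of hydroxylation and folding (Serpinh1, the collagen chaperone, lower in the Lgr6 mice at 2.79 and 2.51 against 5.51 and 4.48), 0 of 7 of propeptide cleavage, 1 of 5 of cross-linking (Loxl1, higher), 0 of 5 of degradation, 1 of 6 receptors (Itgb1, higher) and 4 of 10 basement membrane partners (Lama5, Lamc1, Hspg2 and Sparc, higher). Hspg2, which encodes perlecan, gave 1.96 and 1.64 in the Lgr5 mice against 3.90 and 4.27 in the Lgr6 mice. Between the classes limma called 5.1% of all genes. Of 6 receptors it called 2 as higher in Acta2-high cells, Itga1 and Itgb1, a collagen-binding integrin pair. Of 10 basement membrane partners it called 3, the laminin and perlecan genes Lama5 and Hspg2 as higher and Lamb1 as lower. It called 0 of 15 genes of hydroxylation and folding, 0 of 7 of propeptide cleavage, 0 of 5 of cross-linking and 0 of 4 of degradation. Without the epithelial-marker-rich cells limma called 0 genes, with Acta2 itself uncalled, so that setting cannot tell whether these calls rest on those cells. On summed reads Hspg2 had a fold change of 0.05. Itgb1 gave 7.88 and 7.83 in the high cells against 4.66 and 5.51 in the lower cells. P4hb and Ppib, folding enzymes at the top of their list, gave 7.13 and 7.46, and 5.76 and 6.52, in the high cells, against 7.55 and 8.61, and 6.55 and 6.45, in the lower cells. The top genes of the other lists without a call had these fold changes on summed reads. Pcolce2 and Pcolce had -1.19 and -1.59, Loxl1 and Loxl2 -0.04 and 1.51, and Mmp2 and Mmp14 -3.20 and -0.47.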

How the data were processed

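Cells were sorted into 96-well plates and profiled by SmartSeq2 with 38-base paired reads. The authors deposited gene counts for 384 wells (380 single cells, 4 pools), estimated with kallisto 0.43.0 (k-mers of 31, mm10) after bcl2fastq 2.17.1.14, per the submitters' processing notes, and given as whole numbers. Log2(TPM + 1) values were deposited too, both for every well and for the 29, 28, 50 and 75 cells left by the authors' filter. That filter used at least 2000 genes, an upper outlier limit on their number, and levels of housekeeping genes, R26-Tom, Pecam1 and Ptprc. The annotation release is not given in the sources used here, and the deposited counts that the authors scaled were not used. Reads carry no molecular identifiers. The intervals of shares are over the cells of 1 mouse, so they cover counting error only and leave out the spread between mice. A gene can have a count in the deposited tables where its TPM is listed at 0, so levels and shares of cells need not match. No doublet caller was run.

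The kept cells' counts, added up within each mouse (and Acta2 class), were tested with edgeR 4.0.16 (TMM, filterByExpr, quasi-likelihood test, Benjamini-Hochberg over all genes, threshold 0.05), with the mouse as a block between classes. Alternatives were DESeq2 1.42.0, limma 3.58.1 on mean log2(TPM + 1) per mouse (pseudocounts 1 and 0.1), no low-count filter, other Acta2 limits (10 and 12), and cells thinned to 99000 reads, which left out 19 cells (1, 3, 13 and 2 by mouse). The limma variances were moderated towards those of other genes of like level. Its p-values therefore do not rest on a gene's own spread between 2 mice alone. In a sum, fewer expressing cells and less RNA per cell cannot be told apart. The study states no test between these groups. The mouse was the replicate, and with 2 against 2 the smallest p of an exact permutation test is 0.333. The shares plotted have exact Clopper-Pearson 95% intervals, and a share of 0 has the limit that 3 counts would give. All members in at least 10% of cells are named, and those in at least 25% were followed through every alternative. The members and lists were chosen with earlier results of these data known, and the alternatives without the epithelial-marker-rich cells (at least 50000 TPM summed over the 7 markers) and without the collagen-rich cell were chosen after seeing the data. Gene coordinates are from GENCODE vM21 (GRCm38) and promoters from RefSeq. R 4.3.3, Python 3.11.15, numpy 2.4.6, pandas 2.3.3, scipy 1.17.1 and matplotlib 3.10.9 were used. Scripts were tested on simulated data.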

Additional observations from a re-analysis of the deposited data

Results flagged for a closer look

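The deposited count table also held 4 wells of pooled cells and 198 single-cell wells that the authors' filter removed, and none of them entered a comparison above. Collagen counts were present in them, which is why they are listed, and with 2 mice a group no test for a stray sample could be run. In the pools the 44 chain genes took 0.747% and 0.288% of the reads of Lgr5 mice 1 and 2, and 1.12% and 0.417% of those of Lgr6 mice 1 and 2. Over the removed wells the median share was 0.185% and 0.125% in Lgr5 mice 1 and 2, against 0.583% and 0.355% in Lgr6 mice 1 and 2. In the Lgr5 mice, 44 of 66 and 41 of 67 removed wells had a count of Pecam1, an endothelial gene, against 0 of 45 and 0 of 20 in the Lgr6 mice.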

How the results depend on the processing

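Counts of members called depended on the test. Between the lines the count of 0 became 2 with no low-count filter (Col4a5 and Col25a1), 2 and 1 with limma at pseudocounts 1 and 0.1, and 1 with limma without the epithelial-marker-rich cells. All 448 Col25a1 counts of Lgr5 mouse 1 came from 1 cell, against 3 counts in Lgr5 mouse 2 and 7 and 0 in the Lgr6 mice. Between the classes the count of 0 became 2 with DESeq2, 3 and 2 with limma at pseudocounts 1 and 0.1. In Acta2-lower cells between the lines it became 6 with no filter, and 0 to 3 with 1 mouse left out. Of all genes, 0, 4 and 0 were called in the 3 comparisons, against 567, 923 and 389 with DESeq2, 639, 690 and 262 with limma (664, 576 and 396 at pseudocount 0.1), 8, 27 and 5 with thinned cells, and, with no filter, 2.07% and 0.818% of genes in the 2 line comparisons against 0% each. Mouse numbers did not pair the lines (same-number correlations 0.0385 and 0.044). The replicate block called 0 members in both line comparisons, and 0 were called between the classes without the block. Fold changes between the lines that changed sign were Col4a1 (0.20), Col6a3 (0.37), Col14a1 (0.34) and Col16a1 (-0.14). With cells thinned to equal depth Col4a1 was -0.23, Col6a3 -0.42 and Col14a1 -0.38. With limma with pseudocount 1 Col6a3 was -0.052, Col14a1 -0.64 and Col16a1 0.27. With limma with pseudocount 0.1 Col6a3 was -0.10, Col14a1 -1.12 and Col16a1 0.44. With the collagen-rich cell left out Col6a3 was -0.49. With limma without the epithelial-marker-rich cells Col14a1 was -0.66 and Col16a1 0.31. With the replicate block Col16a1 was 0.29. With 1 mouse left out, values ran from -0.13 to 0.50 for Col4a1, from -0.33 to 0.83 for Col6a3, from -1.62 to 0.55 for Col12a1 and from -0.87 to 1.38 for Col16a1. Fold changes between the classes that changed sign were Col1a1 (-1.29), Col1a2 (-0.29), Col3a1 (-0.73), Col4a1 (-0.096), Col4a6 (-0.31), Col5a1 (-0.25), Col5a2 (-0.31), Col6a1 (-1.08), Col6a2 (-1.0), Col6a3 (-0.81) and Col12a1 (0.77). With limma with pseudocount 1 Col1a1 was 0.34, Col1a2 1.66, Col3a1 0.91, Col4a1 0.12, Col4a6 0.88, Col5a1 0.31, Col5a2 0.26, Col6a1 0.61, Col6a2 1.45 and Col6a3 1.37. With limma with pseudocount 0.1 Col1a1 was 0.69, Col1a2 2.46, Col3a1 1.35, Col4a1 0.21, Col4a6 1.44, Col5a1 0.57, Col5a2 0.42, Col6a1 1.02, Col6a2 2.12 and Col6a3 1.94. With cells thinned to equal depth Col1a2 was 0.064, Col4a6 0.27, Col5a1 0.32 and Col6a3 0.28. With the collagen-rich cell left out Col1a2 was 0.47, Col5a1 0.80, Col6a2 0.23 and Col6a3 0.80. With limma without the epithelial-marker-rich cells Col1a2 was 0.75, Col4a1 0.24, Col4a6 0.69, Col6a1 0.38, Col6a2 0.96 and Col6a3 0.79. With an Acta2 limit of 10 Col4a1 was 0.43 and Col4a6 0.89. With an Acta2 limit of 12 Col4a1 was 0.059, Col4a6 0.21 and Col12a1 -0.53. With 1 mouse left out, values ran from -1.16 to 0.58 for Col1a2, from -1.60 to 0.13 for Col3a1, from -0.28 to 0.085 for Col4a1, from -0.22 to 1.15 for Col4a2, from -0.28 to 1.07 for Col4a5, from -0.74 to 0.24 for Col5a1, from -1.22 to 0.60 for Col5a2, from -2.24 to 0.24 for Col6a2, from -2.42 to 0.80 for Col6a3 and from -0.30 to 1.85 for Col12a1. Fold changes between the lines in Acta2-lower cells that changed sign were Col4a1 (0.28) and Col6a3 (1.11). With cells thinned to equal depth Col4a1 was -0.22 and Col6a3 -0.59. With limma with pseudocount 1 Col6a3 was -0.77. With limma with pseudocount 0.1 Col6a3 was -1.11. With the collagen-rich cell left out Col6a3 was -1.0. With limma without the epithelial-marker-rich cells Col6a3 was -0.43. With 1 mouse left out, values ran from -0.083 to 0.64 for Col4a1, from -0.32 to 0.0081 for Col5a1, from -0.81 to 1.92 for Col6a3, from -2.51 to 0.27 for Col12a1 and from -1.10 to 0.99 for Col16a1. The cause of these changes was not tested, except that fewer cells entered where cells were left out. A member's sign held under every alternative that kept all mice for 12 of 16 members between the lines, 5 of 16 between the classes and 14 of 16 in Acta2-lower cells. Fitting every mouse with at least 3 cells in each class gave the same fit, since the Lgr5 mice had 1 Acta2-high cell. Members detected in at least 10% of cells numbered 18, also with thinned cells, and 17 with a TPM above 1. Depth per mouse differed by over 10 times, and 2 mice a line limit every test.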
